A study of Mus musculus with 8 samples.

Results

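Apolipoproteins and the genes that assemble chylomicrons were compared between intestinal epithelial cells of 4 WT and 4 Rank-knockout mice at lactation day 5. The list named 10 genes, Apob, Mttp, Apoa1, Apoa4, Apoc3, Apoc2, Pla2g12b, Sar1b, Tm6sf2 and P4hb, and their rows were taken from a table of 54532 genes. Enough counts for a test were found for 9 of the 10 genes, among 9855 tested genes in all, and the exception was Apoc2. RANK, encoded by Tnfrsf11a, is a receptor of the tumour necrosis factor receptor family that activates NF-κB. According to the study's methods, the knockout dams (Rank Δvil) carried the conditional Rank flox allele and a Cre driven by the Villin1 promoter, which is active in the intestinal epithelium. WT females (Rank WT) were littermates, and both genotypes had been mated with wild-type C57BL/6J males, so that all 8 dams carried RANK-sufficient litters. Neither the age of the dams nor the segment of the intestine is given in the labels. Each library is labelled as coming from a mouse of 1 genotype, with no litter or day named, so the p-values measure the spread between these 8 samples.

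Enterocytes pack absorbed fat into chylomicrons. Apolipoprotein B forms the scaffold of each particle, the microsomal triglyceride transfer protein loads it with lipid in the endoplasmic reticulum, and the growing particle gains core triglyceride and surface apolipoproteins before a COPII-type carrier takes it to the Golgi and on to the lymph. Loss of APOB, MTTP or SAR1B function in humans causes fat malabsorption, in which lipid stays in the enterocytes.

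Total counts ran from 1530781 to 4335653 per library, and WT replicate 2 was deeper than the other WT libraries. The libraries were made from the 3′ ends of polyadenylated transcripts, with about 1 tag for a transcript of any length, and levels of different genes were compared as counts per 1000000 counts (CPM) without dividing by length. CPM values were scaled by the trimmed mean of M-values (TMM), and log2 fold changes (Rank-knockout minus WT) and adjusted p-values came from edgeR. Each standard error (SE) was worked back from that test, as the absolute log2 fold change divided by the square root of its F statistic. WT libraries held 60.7 ± 17.7 CPM of Tnfrsf11a and Rank-knockout libraries 38.0 ± 8.64 (SD, n = 4; edgeR adjusted p = 0.0321), but tags from its 3′ end do not report on an upstream deletion. Epithelial markers (Epcam, Cdh1, Krt8 and others) summed to between 11440 and 12540 CPM in WT and between 8923 and 11260 CPM in Rank-knockout. Stromal and muscle markers summed to at most 19.1 CPM and macrophage markers to at most 21.9 CPM in any library. T cell markers summed to between 171 and 259 CPM in WT and between 115 and 184 CPM in Rank-knockout, and B and plasma cell markers to between 56.7 and 153 CPM and between 9.89 and 53.7 CPM. The liver is the other main source of apolipoproteins, and of the 9 hepatocyte markers in the table Serpina1a, Fgb, Fga and Hp had 0 counts in all libraries, while Alb had 0 counts in the WT libraries and 0.188 ± 0.375 CPM (SD, n = 4) in the knockout. Nearly all of the hepatocyte marker sum came from Cps1, a urea cycle enzyme that enterocytes also express, which went from 143 ± 28.7 to 241 ± 24.6 CPM (SD, n = 4; edgeR adjusted p = 0.00208). That sum was between 123 and 184 CPM in WT and between 226 and 282 CPM in Rank-knockout.

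The genes lie at separate places in the genome, except for one cluster. On mouse chromosome 9 (GRCm38), Apoa1 (46228580 to 46230466, plus strand), Apoc3 (46232933 to 46235636, minus strand) and Apoa4 (46240696 to 46243459, plus strand) are neighbours, and Apoa5, the fourth gene of the cluster, had 2 counts over all 8 libraries. Promoter windows from RefSeq (GRCm38.p6), from 250 bases before to 50 bases after the start, were found for 8 of the 10 genes, without Apoc3 and Tm6sf2. The windows of Apoa1 and Apoa4 and of the pair that begins particle assembly are shown because all 4 transcripts were called lower with TMM scaling, with motif matches in capitals. For all 4 the RefSeq start differs from the gene start in the annotation matched to the counts. The whole Mttp window lies inside the annotated gene (138089854 to 138144968, minus strand), and so does most of the Apoa4 window inside its gene. These windows therefore say little about the region before the annotated starts of those 2 genes.
Apoa1, chr9:46228380-46228679, plus strand: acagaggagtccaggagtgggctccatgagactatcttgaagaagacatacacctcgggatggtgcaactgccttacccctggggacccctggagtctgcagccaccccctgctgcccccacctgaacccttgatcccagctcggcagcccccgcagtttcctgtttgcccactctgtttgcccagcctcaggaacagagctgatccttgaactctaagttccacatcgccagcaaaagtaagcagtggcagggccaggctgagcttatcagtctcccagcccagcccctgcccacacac
Apoa4, chr9:46240594-46240893, plus strand: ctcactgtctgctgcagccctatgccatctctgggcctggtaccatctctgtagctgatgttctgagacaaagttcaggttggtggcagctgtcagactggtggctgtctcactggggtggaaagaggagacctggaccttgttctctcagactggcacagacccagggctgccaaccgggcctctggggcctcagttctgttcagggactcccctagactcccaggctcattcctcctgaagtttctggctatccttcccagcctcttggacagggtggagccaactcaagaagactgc
Apob, chr12:7977427-7977726, plus strand: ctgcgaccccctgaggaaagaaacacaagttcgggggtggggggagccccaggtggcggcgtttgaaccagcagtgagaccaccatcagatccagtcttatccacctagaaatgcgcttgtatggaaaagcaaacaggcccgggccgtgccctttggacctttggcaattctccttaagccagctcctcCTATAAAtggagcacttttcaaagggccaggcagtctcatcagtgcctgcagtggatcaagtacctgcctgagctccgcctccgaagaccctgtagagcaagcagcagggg
Mttp, chr3:138143369-138143668, minus strand: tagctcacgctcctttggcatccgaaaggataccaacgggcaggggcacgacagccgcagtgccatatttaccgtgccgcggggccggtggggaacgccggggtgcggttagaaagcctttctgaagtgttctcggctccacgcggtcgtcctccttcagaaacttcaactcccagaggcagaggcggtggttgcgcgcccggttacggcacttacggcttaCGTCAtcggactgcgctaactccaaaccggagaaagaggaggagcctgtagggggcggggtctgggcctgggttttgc

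Both strands of the windows were searched for 6 short motifs of factors known to act in enterocytes. The HNF4 motif CAAAGTCCA was in 0.475% of 32851 promoters and in none of the 8 windows, and the GATA motif AGATAA was in 11.2% of promoters and in none of the 8. The nuclear receptor element AGGTCA (16.3% of promoters) was found only in the Apoc2 window. The CDX2 motif TTTATNG (10.9% of promoters) was found for Apob and Apoc2, and the short element TGACG of CREB-type factors (20.8% of promoters) for Mttp, Apoc2 and P4hb. The Apob match to TTTATNG, at -61 from the start on the opposite strand, overlapped its TATAAA match at -60, and TATAAA was in 13.6% of promoters and in no other of these windows. The Apoa1 and Apoa4 windows held no match to these letters.

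The 4 tested apolipoproteins fell to between 36.8 and 44.7% of their WT mean, and the 5 tested assembly genes to between 53.9 and 65.0%. Apoa4, whose product is a large exchangeable apolipoprotein made mainly by the intestine after fat intake, was at 8174, 8415, 9436 and 9537 CPM in WT replicates 1 to 4. In Rank-knockout replicates 1 to 4 it was at 3439, 4172, 5161 and 3128 CPM. Every Rank-knockout library was below every WT library, and by count Apoa4 ranked between 3 and 5 among all genes in the WT libraries and between 7 and 15 in the Rank-knockout libraries. The means were 8891 ± 696 and 3975 ± 903 CPM (SD, n = 4), with Rank-knockout at 44.7% of WT.

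Apoa1, the main protein of high-density lipoprotein and a component of newly made chylomicrons, was measured at 5182, 4959, 5200 and 5733 CPM in WT. The Rank-knockout libraries had 1995, 2223, 2372 and 2207 CPM. Its spread was small in both genotypes, with a coefficient of variation of 6.24% in WT and 7.04% in Rank-knockout, and the genotypes were far from overlapping. Rank-knockout was at 41.7% of WT, and its log2 fold change came to -1.26 (SE 0.14, edgeR adjusted p = 9.88e-05). By count Apoa1 ranked from 9 to 14 in WT libraries and from 28 to 35 in Rank-knockout libraries.

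Apoc3, whose product slows lipoprotein lipase and the clearance of triglyceride-rich particles, kept the smallest share of its WT level in the set. WT libraries had 1056, 1380, 1230 and 1380 CPM and Rank-knockout libraries 462, 468, 561 and 367 CPM, again with no overlap. The Rank-knockout mean was 36.8% of WT (log2 fold change -1.44, SE 0.16; edgeR adjusted p = 9.88e-05). For Apoa4 edgeR gave a log2 change of -1.16 (SE 0.17, adjusted p = 0.00033). Apoa1, Apoa4 and Apoc3 together made up 1.43 ± 0.0913% of all WT counts and 0.705 ± 0.112% of those of the knockout (SD, n = 4).

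Apob encodes the non-exchangeable scaffold, of which each particle holds a single copy. It was measured at 1037, 956, 761 and 1012 CPM in WT and at 408, 398, 362 and 320 CPM in Rank-knockout. WT replicate 3 was the lowest WT library, and the highest Rank-knockout library, replicate 1, was still well below it. The means were 941 ± 125 and 372 ± 39.9 CPM (SD, n = 4), with Rank-knockout at 39.5% of WT (log2 fold change -1.34, SE 0.15; edgeR adjusted p = 9.88e-05). In mouse intestine the transcript is edited to encode the short form apoB-48, and tags from the 3′ end do not tell edited from unedited transcripts.

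Both subunits of the microsomal triglyceride transfer protein fell, with log2 fold changes closer to 0 than those of the apolipoproteins. Mttp, which encodes the lipid-transferring subunit, had 1565, 1488, 1677 and 1628 CPM in WT and 618, 1137, 877 and 1126 CPM in Rank-knockout. The Rank-knockout libraries were spread more widely, with a coefficient of variation of 26.2% against 5.16% in WT, and replicate 1 was the lowest. Rank-knockout was at 59.1% of WT (log2 fold change -0.76, SE 0.18; edgeR adjusted p = 0.00516). P4hb encodes protein disulfide isomerase, which serves as the second subunit and also folds proteins and hydroxylates collagen outside that complex. Its levels were 3030, 3048, 3310 and 3355 CPM in WT and 1700, 2180, 1999 and 2399 CPM in Rank-knockout. P4hb had the smallest change of the tested genes, at 65.0% of WT (log2 fold change -0.62, SE 0.15; edgeR adjusted p = 0.00544), and its genotypes did not overlap.

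Tm6sf2 and Pla2g12b encode endoplasmic reticulum proteins needed to add bulk lipid to the particle. Tm6sf2 was at 440, 517, 462 and 423 CPM in WT and at 192, 286, 226 and 290 CPM in Rank-knockout, or 53.9% of WT (log2 fold change -0.89, SE 0.16; edgeR adjusted p = 0.000825). Pla2g12b, a catalytically inactive member of the secreted phospholipase family, was lower in level, at 126, 128, 106 and 108 CPM in WT and 52.6, 72.1, 66.1 and 79.4 CPM in Rank-knockout. It reached 57.8% of WT (log2 fold change -0.80, SE 0.16; edgeR adjusted p = 0.00171). For both genes all Rank-knockout libraries were below all WT libraries, and replicate 1 was the lowest.

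Sar1b encodes the small GTPase that starts the COPII coat and is required to export chylomicrons from the endoplasmic reticulum. It was at 121, 131, 133 and 117 CPM in WT and at 52.4, 87.4, 79.6 and 87.0 CPM in Rank-knockout. Here too replicate 1 was the lowest Rank-knockout library and the genotypes did not overlap. Rank-knockout was at 61.1% of WT (log2 fold change -0.72, SE 0.17; edgeR adjusted p = 0.0047). Pla2g12b and Sar1b had means between 222 and 266 counts per genotype, so counting error alone was between 6.13% and 6.71% of their mean count, against at most 3.50% for the other tested genes.

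Apoc2, which encodes the activator of lipoprotein lipase, had 0 counts in all 8 libraries and was not tested. With a floor of 3 counts, this allows up to between 0.692 and 1.96 CPM of the unscaled library total, for uniquely assigned tags and for counting error only. The annotation places a second protein-coding gene, Gm44805, on the same strand over 79.5% of the exon bases of Apoc2 and over 483 of its last 500 exon bases, and Gm44805 also had 0 counts. The usual setting of the counting program leaves out reads that lie on more than 1 gene, and the setting used was not stated, so the level of Apoc2 could not be read from this table.

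**Figure D1:**
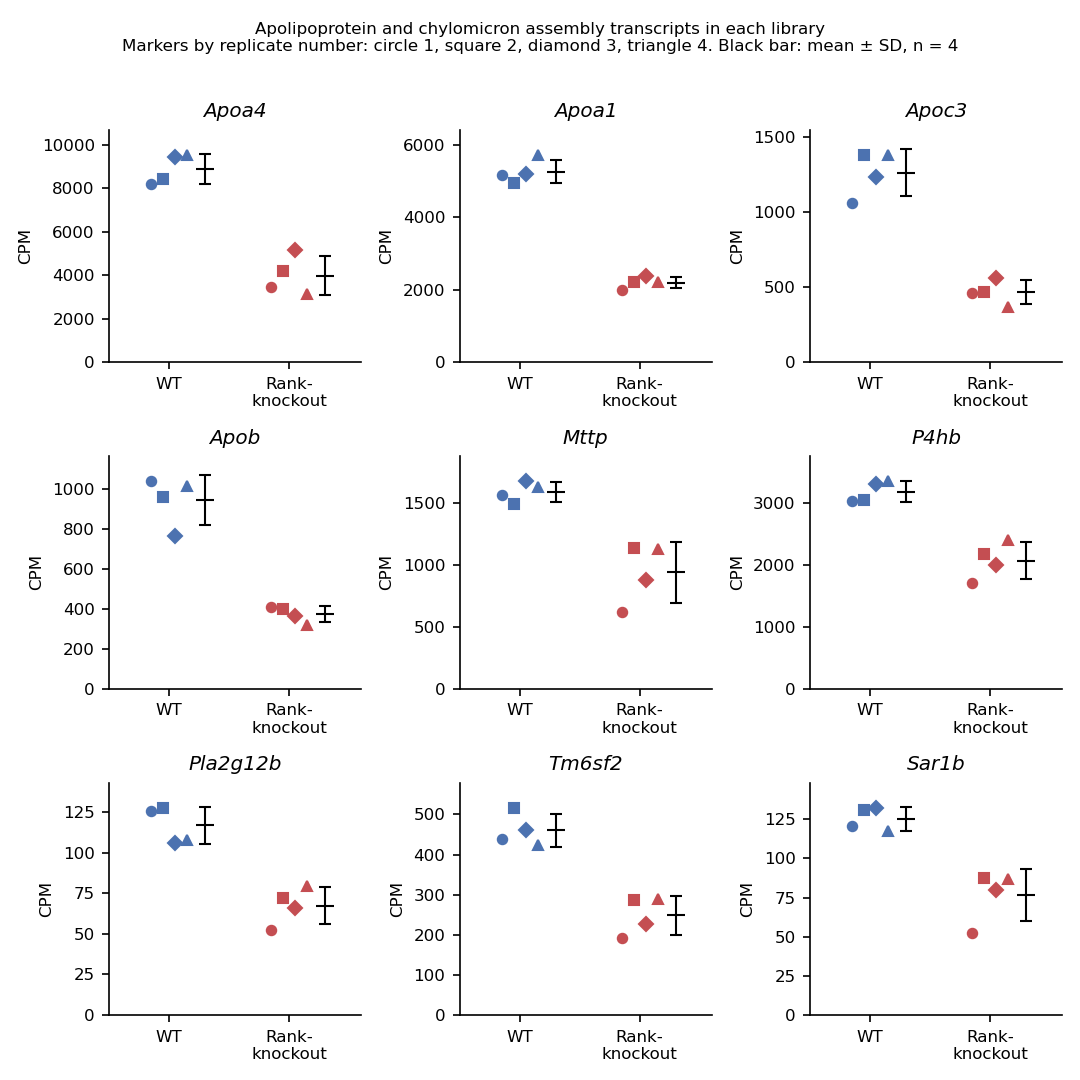
TMM-scaled CPM (vertical axes, starting at 0) of the 9 tested genes in each WT (blue) and Rank-knockout (red) library, with the mean ± SD (n = 4) in black and the marker shape giving the replicate number. In every panel the 4 Rank-knockout libraries lie below the 4 WT libraries, from Apoa4 at 8891 against 3975 CPM to Pla2g12b at 117 against 67.5 CPM.

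With TMM scaling, edgeR called all 9 tested genes of the list lower in the knockout (adjusted p under 0.05) and 0 higher. Over all 9855 tested genes, 14.6% were called lower and 15.8% higher. The genotypes did not overlap for any of the 9, compared with 14.3% of tested genes that were lower without overlap. Median log2 fold change was -0.89 over the 9 genes and 0.02 over all tested genes. The list as a whole took 2.02 ± 0.108% of WT counts and 1.11 ± 0.115% of knockout counts (SD, n = 4), with ranges of 1.91 to 2.17% and 0.972 to 1.24%. The balance of higher and lower calls among all genes depended on the scaling: 52.0% of calls were higher with TMM, 74.9% with library totals, 68.1% when the 50 most abundant genes were left out of the library size and 77.5% with libraries scaled to epithelial markers. The last 3 scalings moved the median of all genes up by 0.20, 0.13 and 0.24 on the log2 scale, and under each of them the 9 genes were still called lower, with medians of -0.70, -0.76 and -0.67.

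Whether the genes kept their proportions to each other was examined with 5 ratios of counts within a library, which need no scaling, by an exact two-sided permutation test over the 70 assignments of the libraries. Apoa4 to Apoa1, neighbours of the cluster, stood at 1.69 ± 0.0983 in WT libraries and 1.80 ± 0.316 in knockout libraries (SD, n = 4; exact p = 0.57, adjusted 0.57 over the 5 ratios). Apoc3 to Apoa1 was 0.240 ± 0.0305 in WT and 0.211 ± 0.0321 in Rank-knockout (exact p = 0.26, adjusted 0.32). Neither difference was larger than the spread between libraries.

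Scaffold and loading protein were set against each other as Apob to Mttp, which was 0.663, 0.643, 0.454 and 0.621 in WT and 0.660, 0.350, 0.413 and 0.284 in Rank-knockout. Replicate 1 of Rank-knockout lay among the WT values while the other Rank-knockout libraries were below all of them, and the test missed the threshold (exact p = 0.11, adjusted 0.29). Mttp to P4hb was nearly constant in WT, between 0.485 and 0.516, and ran from 0.363 to 0.522 in Rank-knockout (exact p = 0.17, adjusted 0.29). The larger fall of Apob than of Mttp in CPM was therefore not separated from the spread of these libraries.

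Sar1b was set against its paralogue Sar1a, which encodes the other SAR1 GTPase. The ratio was 1.47, 1.31, 1.75 and 1.38 in WT and 0.710, 1.15, 1.04 and 1.22 in Rank-knockout, so that the genotypes did not overlap. Its exact p of 0.029 is the smallest that 4 against 4 libraries can give, and it was 0.14 after adjustment over the 5 ratios. Sar1a itself averaged 85.8 ± 10.3 CPM in WT libraries and 74.6 ± 2.47 CPM in knockout libraries (SD, n = 4; log2 fold change -0.21, SE 0.14; edgeR adjusted p = 0.272).

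**Figure D2:**
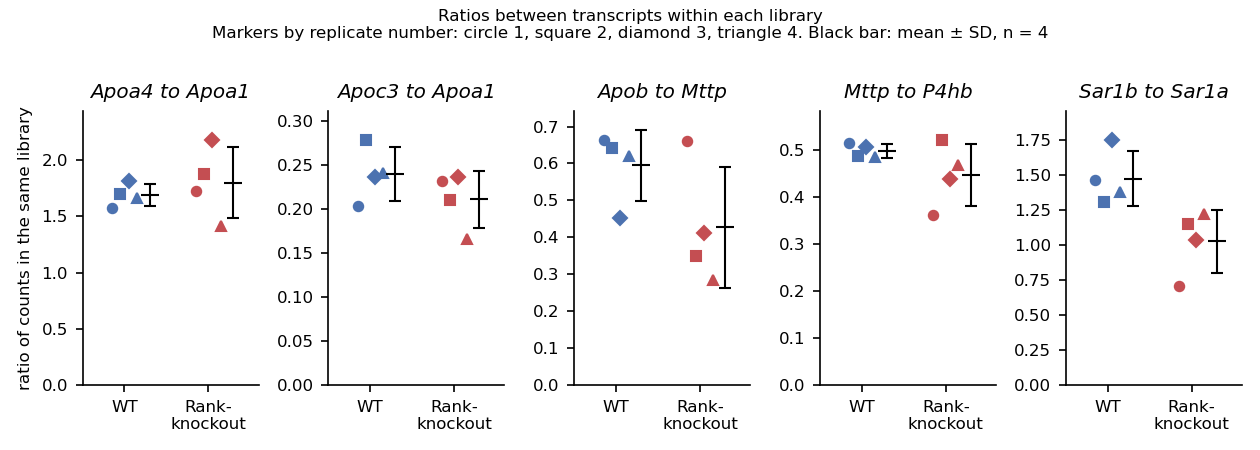
Ratios of counts of 2 genes in the same library (vertical axes, starting at 0) for WT (blue) and Rank-knockout (red), with the mean ± SD (n = 4) in black. Only Sar1b to Sar1a shows no overlap between the genotypes (1.48 ± 0.193 against 1.03 ± 0.225), and no ratio passed the threshold after adjustment over the 5 ratios.

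The cells in the libraries were compared by marker lists, because the genes of chylomicron assembly are used by mature enterocytes. All 12 enterocyte markers, among them Treh, Ace, Lct and Slc5a1, were called lower in Rank-knockout with TMM scaling, with a median log2 fold change of -1.07. With library totals Sis and Anpep were not called (edgeR adjusted p = 0.0784 and 0.132), which left 10 of the 12. Their sum was between 15510 and 21340 CPM in WT and between 7961 and 11660 CPM in Rank-knockout. Of 10 crypt and cycling markers, 8 were called higher and 0 lower, and their sum rose from between 526 and 797 CPM to between 993 and 1897 CPM. Of the 8 epithelial markers, 3 were lower (Krt20, Vil1 and Epcam), 2 were higher (Krt19 and Krt18) and 3 were not called, and with library totals Epcam was not called either (edgeR adjusted p = 0.156). Genes of the proximal intestine, where fat absorption is greatest, summed to between 2993 and 4180 CPM in WT. In Rank-knockout they summed to between 1308 and 1994 CPM. Of 6 tested genes, 3 were called lower (Lct, Adh6a and Cyp2b10), and the sum came mostly from these 3. Lct is also an enterocyte marker. Gata4, Onecut2 and Pdx1 were not called, with log2 fold changes of -0.19, -0.145 and -1.002 (edgeR adjusted p = 0.508, 0.536 and 0.204). Ileal genes summed to between 1230 and 1365 CPM and between 704 and 964 CPM, with 1 of 3 tested genes lower, and that sum came mostly from Muc3, Slc51a and Slc51b. The ileal gene Fabp6, with too few counts for the test, went the other way without overlap, from 1.25 ± 0.761 to 5.68 ± 2.87 CPM (SD, n = 4). In bulk samples, fewer cells of a type and less RNA per cell cannot be told apart, and the part of these shifts in the fall of the apolipoprotein genes was not tested.

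When each library was scaled to its own enterocyte marker counts, 0 of the 9 genes were called lower and 0 higher. At that scaling 0.325% of all tested genes were called lower and 73.8% higher by edgeR, and the median of all genes moved up by 0.92 on the log2 scale. The 4 apolipoproteins stayed below 0, with log2 fold changes of -0.49 for Apoc3 (SE 0.23; edgeR adjusted p = 0.055), -0.39 for Apob (SE 0.22; adjusted p = 0.111), -0.32 for Apoa1 (SE 0.19; adjusted p = 0.13) and -0.21 for Apoa4 (SE 0.22; adjusted p = 0.378). The 5 assembly genes were near or above 0, from 0.00 for Tm6sf2 (-0.001, SE 0.20; edgeR adjusted p = 0.996) to 0.29 for P4hb (SE 0.19; adjusted p = 0.151). Without Rank-knockout replicate 1, Apob and Apoc3 were called lower relative to the enterocyte markers (log2 fold changes -0.55 and -0.585; edgeR adjusted p = 0.0392 and 0.0445), and without Rank-knockout replicate 3, Apoc3 was (-0.62; adjusted p = 0.0377).

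The same comparison was made by library. Apoa1 had 281, 320, 274 and 269 counts per 1000 enterocyte marker counts in WT and 251, 216, 258 and 189 in Rank-knockout, with every Rank-knockout library lower, as for 0.213% of all tested genes. P4hb had 164, 197, 174 and 157 in WT and 214, 212, 218 and 206 in Rank-knockout, with every Rank-knockout library higher, as for 63.0% of all tested genes. The remaining 7 genes overlapped between the genotypes on this scale, and for Tm6sf2 the means were 25.3 ± 5.71 and 25.3 ± 1.69 per 1000 (SD, n = 4).

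**Figure D3:**
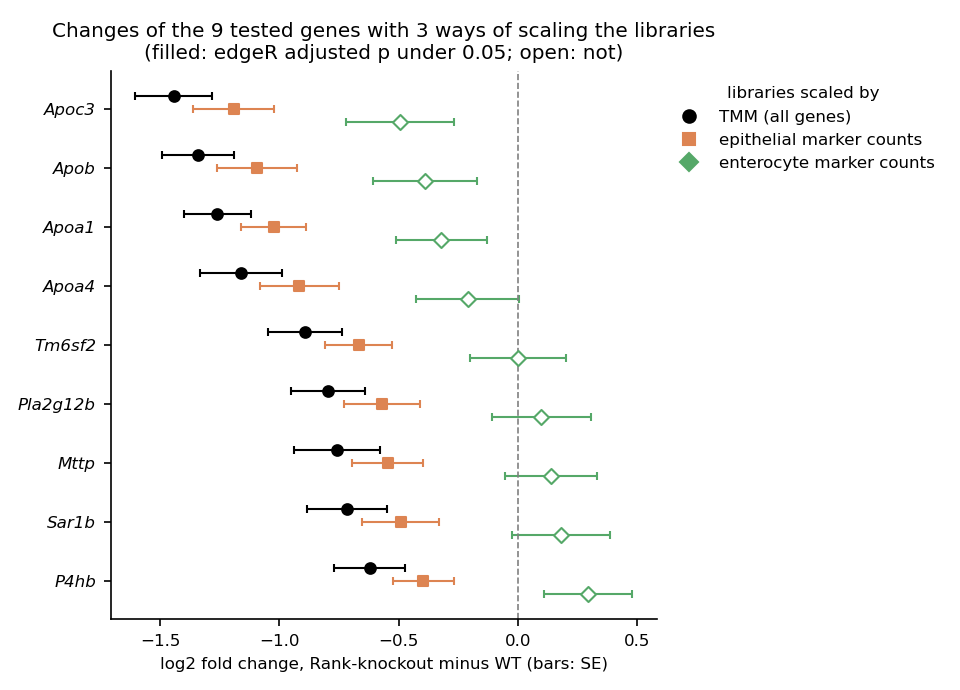
Log2 fold change (Rank-knockout minus WT, horizontal axis) with its SE for each tested gene, with libraries scaled by TMM (black circles), epithelial marker counts (orange squares) or enterocyte marker counts (green diamonds), filled where the edgeR adjusted p was under 0.05. All 9 genes are filled and below 0 with the first 2 scalings, and all are open with the third, where they run from -0.49 for Apoc3 to 0.29 for P4hb.

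**Figure D4:**
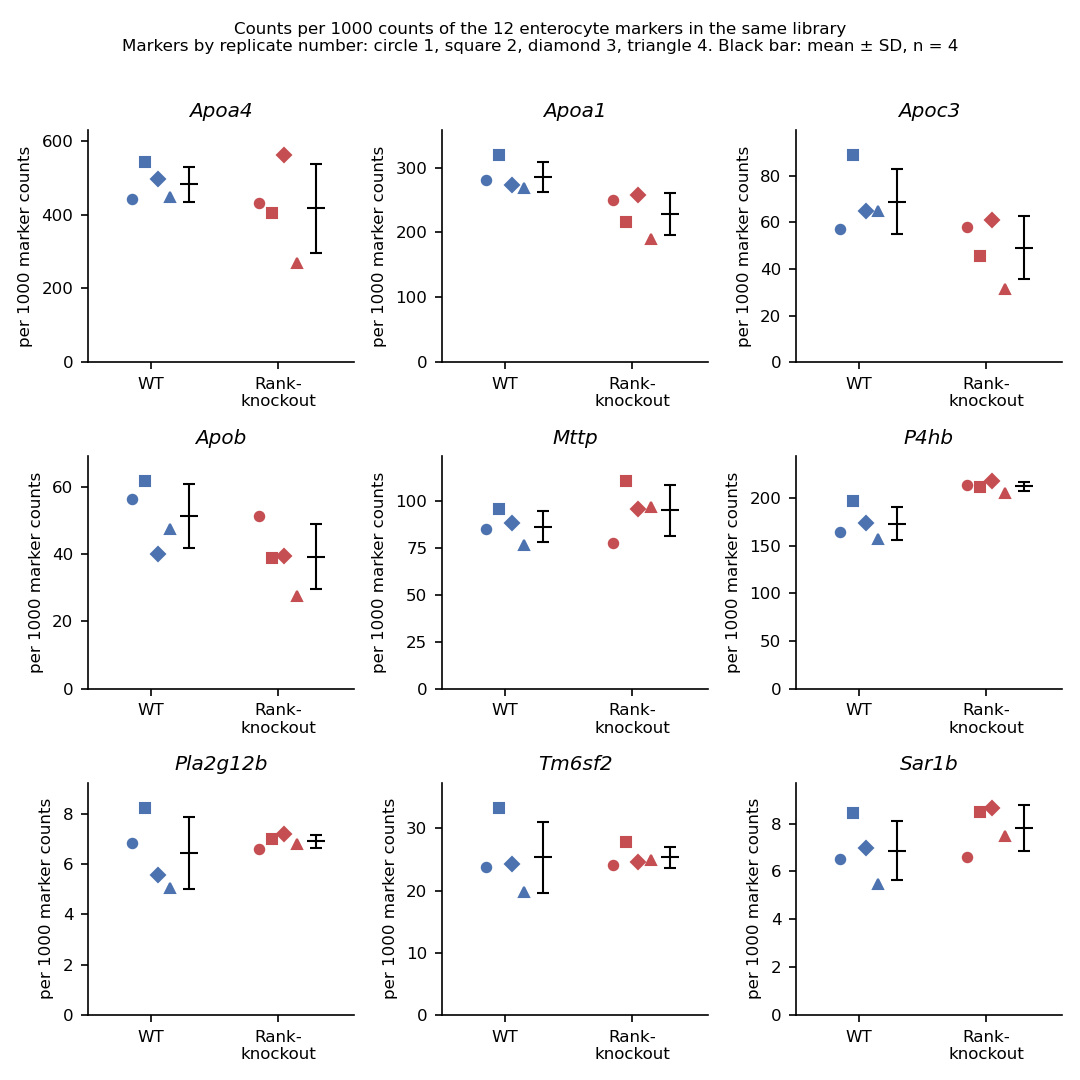
Counts of each gene per 1000 counts of the 12 enterocyte markers in the same library (vertical axes, starting at 0), for WT (blue) and Rank-knockout (red), with the mean ± SD (n = 4) in black and marker shape giving the replicate number. Apoa1 is lower (286 against 229) and P4hb higher (173 against 212) without overlap, as are 0.213% and 63.0% of all tested genes, and the other genes overlap.

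Genes that work with the list were then counted, by roles, with TMM scaling. When the libraries were scaled to enterocyte markers instead, no gene of the editing, coat, folding, triglyceride and regulator lists was called lower, against 0.325% of all tested genes, and 1 of 3, 9 of 20, 11 of 12, 1 of 13 and 10 of 17 genes of these lists were called higher, against 73.8%. Scarb1, Abca1 and Lrp1, described last, were not called lower at that scaling either. The other apolipoproteins had few counts: Apoe, the ligand for remnant uptake, had 29 over the 4 WT libraries and 53 over the 4 knockout libraries, Apoa2 had 43 and 23, and Apoc1, Apoc4, Apoa5, Apom, Apoh and Apod were each below 1 CPM on average. None of the 8 had enough counts for the test.

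Apob mRNA editing depends on the deaminase Apobec1 and its RNA-binding cofactors A1cf and Rbm47, and all 3 were called lower. Apobec1 went from 27.5 ± 9.91 to 13.9 ± 4.03 CPM (SD, n = 4; log2 fold change -0.92, SE 0.29; edgeR adjusted p = 0.024). Rbm47 went from 661 ± 85.1 to 479 ± 65.7 CPM (adjusted p = 0.0277) and A1cf from 30.1 ± 7.80 to 20.3 ± 2.49 CPM (adjusted p = 0.0452, edgeR). The genotypes overlapped for each of these genes. Their calls were less firm than those of the apolipoproteins: 0 of the 3 were called with library totals, without WT replicate 3 or without Rank-knockout replicate 3, and 1 of the 3 without the filter on low counts, without the 50 most abundant genes in the library size, without WT replicate 4 or without Rank-knockout replicate 1 or 2.

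Of 20 tested genes for the secretory coat and its cargo receptors, 6 were called lower and 0 higher, with a median log2 fold change of -0.43. The smallest p was that of Mia2, which encodes a cargo receptor at exit sites that helps export large lipoproteins, which went from 312 ± 23.3 to 179.6 ± 20.5 CPM (SD, n = 4; log2 fold change -0.80, SE 0.14; edgeR adjusted p = 0.000748). Sec24d, which binds cargo in the inner coat, went from 84.7 to 50.9 CPM (edgeR adjusted p = 0.00267) and Sec31a of the outer coat from 268 to 177 CPM (adjusted p = 0.00461). Mia3, Sec23a and Sec24a were the other 3 that fell, and with library totals Mia3 and Sec24a lost their calls (edgeR adjusted p = 0.0602 and 0.16), leaving 4 lower. Preb, the exchange factor that loads SAR1 with GTP, was at 131 ± 10.3 and 161 ± 3.78 CPM (SD, n = 4; edgeR adjusted p = 0.0932), and Klhl12 and Sec13 also had positive log2 fold changes, of 0.31 and 0.19 (edgeR adjusted p = 0.296 and 0.694). With library totals, and with the 50 most abundant genes left out of the library size, 1 gene of this group was called higher.

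P4hb is one of a family of folding enzymes and chaperones, and of its 12 tested partners 4 were called higher and 0 lower, with a median log2 fold change of 0.38. Pdia6, another disulfide isomerase, went from 190 ± 32.0 to 376 ± 39.7 CPM (SD, n = 4; log2 fold change 0.99, SE 0.15; edgeR adjusted p = 0.000418). The peroxidase Prdx4 went from 11.0 to 23.2 CPM (edgeR adjusted p = 0.0037), the chaperone Hsp90b1 from 543 to 781 CPM (adjusted p = 0.0115) and Pdia5 from 6.13 to 12.1 CPM (adjusted p = 0.0467). Among those not called, Ero1lb had a log2 fold change of -0.93 (edgeR adjusted p = 0.06), at 6.49 and 3.21 CPM, and Ero1l one of -0.01 (adjusted p = 0.978). Of all tested genes, 15.8% were called higher with TMM. With library totals in place of TMM, 9 of the 12 were called higher, while calls higher among all tested genes rose from 1555 to 2566. Without WT replicate 2 or Rank-knockout replicate 4, 1 of the 12 was called lower. Only 3 of the 12 were called higher with RLE size factors, DESeq2 or limma-voom. The same number was called higher in the fits that left out Rank-knockout replicate 1, Rank-knockout replicate 3, WT replicate 1 or WT replicate 4.

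Of 13 tested genes of triglyceride supply and lipid droplets, 10 were called lower and 0 higher, with a median log2 fold change of -0.73. Cidec, a lipid droplet protein, went from 99.8 ± 17.7 to 47.3 ± 3.77 CPM (SD, n = 4; log2 fold change -1.07, SE 0.16; edgeR adjusted p = 0.000369). Gpat3, which makes lysophosphatidic acid, went from 152 to 75.5 CPM (edgeR adjusted p = 0.000532), and the phosphatidate phosphatase Lpin2 from 168 to 87.4 CPM (adjusted p = 0.000764). The 3 genes that were not called were Fabp1, Cideb and Plin2, with log2 fold changes of -0.64, -0.59 and -0.21 (edgeR adjusted p = 0.0737, 0.0848 and 0.449).

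Of 17 tested transcription regulators known to act on apolipoprotein genes, 5 were called lower, 3 higher and 9 neither, where 14.6% of all tested genes were called lower and 15.8% higher. Their median log2 fold change was -0.19. Creb3l3, a membrane-bound factor that activates Apoa4 and other lipid genes, went from 563 ± 54.8 to 271 ± 47.4 CPM (SD, n = 4; log2 fold change -1.06, SE 0.16; edgeR adjusted p = 0.000311). Foxo3 went from 100.1 to 60.0 CPM (edgeR adjusted p = 0.00143), and Hnf4g, a nuclear receptor of enterocytes, from 122 to 69.5 CPM (adjusted p = 0.00266), and Ppargc1a and Nr1h3 were also called lower, although Nr1h3 was not with library totals (adjusted p = 0.207). Srebf2, which drives sterol synthesis, went from 94.9 to 139 CPM (edgeR adjusted p = 0.00658), and the nuclear receptors Nr2f2 and Nr5a2 from 15.0 to 27.0 CPM and from 38.8 to 58.5 CPM (adjusted p = 0.0118 and 0.0203). Hnf4a, named here after its values were seen because its product binds many apolipoprotein promoters, was at 132 ± 30.8 and 148 ± 5.98 CPM (SD, n = 4; edgeR adjusted p = 0.446).

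Genes of lipoprotein clearance and high-density lipoprotein were looked at last. Scarb1, which takes up cholesterol from high-density lipoprotein, went from 21.8 to 8.70 CPM (log2 fold change -1.32, SE 0.29; edgeR adjusted p = 0.00319). Abca1, which loads cholesterol onto apolipoprotein A-I, went from 20.1 to 8.42 CPM (edgeR adjusted p = 0.0107), and the remnant receptor Lrp1 from 189 to 120 CPM (adjusted p = 0.0174), with overlap between the genotypes and no call with library totals (adjusted p = 0.0789). Gpihbp1 and Lcat had 0 counts in all libraries, and Lpl, Lipc and Pltp were at or below 0.776 CPM on average in both genotypes.

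**Figure D5:**
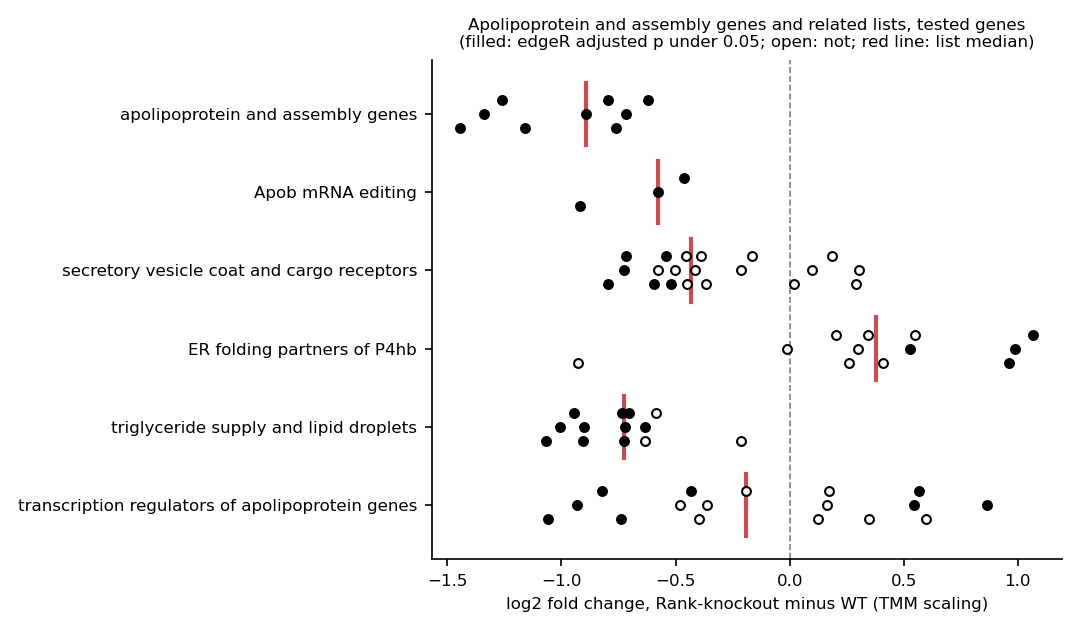
Log2 fold change (Rank-knockout minus WT, TMM scaling, horizontal axis) of each tested gene of the apolipoprotein and assembly list and of 5 related lists, filled where the edgeR adjusted p was under 0.05, with the list median in red. The apolipoprotein and assembly genes have a median of -0.89 and triglyceride supply one of -0.73, and the folding partners of P4hb lie mostly to the right with a median of 0.38. With enterocyte scaling no gene of these lists was called lower, where only 0.325% of all tested genes were.

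Across the 8 libraries, the profile of each gene was expressed as log2 CPM minus its WT mean and compared with the median profile of the 9 tested genes. That median profile was between -0.05 and 0.08 in the WT libraries and at -1.26, -0.69, -0.86 and -0.66 in Rank-knockout replicates 1 to 4, lowest in replicate 1. Among 3650 genes with a mean of at least 50 CPM, those outside the list with the smallest root mean square difference over 8 libraries were Fam234a (0.066), H2-T3 (0.07), Tmem106a (0.079), Gpt (0.087) and Tm4sf5 (0.09). Gpt encodes a cytosolic alanine aminotransferase and H2-T3 a non-classical class I molecule of intestinal epithelium. The 9 tested genes themselves ranged from 0.103 for Tm6sf2 to 0.493 for Apoc3, with the assembly genes at or below 0.179 and the apolipoproteins at or above 0.312. The median profile was made from these same 9 genes, most of which are assembly genes with smaller falls. The distances of the 9 therefore restate their fold changes and are no separate result.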

How the data were processed

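Isolated intestinal epithelial cells gave 3′ mRNA-seq libraries that were read from 1 end. The methods of the study state that reads were trimmed, that ribosomal, mitochondrial, phiX and adapter sequences were removed, and that the rest were aligned to GRCm38 (mm10 in the submitters' processing notes) with STAR and assigned to genes by strand with featureCounts. The authors deposited raw counts for each gene and ran DESeq2 on them. No molecular identifiers are described, so a tag copied by PCR is counted again, and floors cover counting error only. Antisense neighbours of Mttp and Apoa4 are kept apart by strand.

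Identifiers were matched to GENCODE M21 (54495 of 54532). The test was that of edgeR 4.0.16 under R 4.3.3 (filterByExpr, TMM, robust quasi-likelihood F-test, genotype as the only term), with Benjamini-Hochberg adjustment over 9855 genes and a threshold of 0.05. CPM uses TMM-adjusted library sizes. Ratios used log2 of counts with 0.5 added and exact permutation tests (scipy 1.17.1). Alternatives were RLE factors, library totals, exclusion of the 50 most abundant genes from the library size, 2 marker scalings, no filter, a mean of at least 5 CPM, DESeq2 1.42.0, limma-voom (limma 3.58.1), a block for the replicate number, and leaving out 1 library at a time. Simulated data with 200 changed genes (4 WT against 4 Rank-knockout) gave 60% recovery of 2-fold changes among 9720 genes and 6% of 1.5-fold changes among 9725, with 5.51% and 14.3% of calls false. The real comparison called 2993 genes, and the adjustment depends on how many genes change. These rates therefore hold for the simulated setting only. Pairs of libraries of 1 genotype differed by more than sampling noise (chi-square per degree of freedom at least 3.97). Genes named were those of the list; Sar1a and Apobec1; all genes of related lists with at most 8 genes; the 3 smallest p values in each direction of longer lists; the 5 closest profiles; and defining markers. The other called genes of a list, the uncalled genes of triglyceride supply and Hnf4a were named after their values were seen. The genes and lists were chosen with earlier results of these data known. A result that the rule for named genes would include is not reported here.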

Additional observations from a re-analysis of the deposited data

Results flagged for a closer look

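In 32 sets of 4 libraries (totals, CPM of the 9 tested genes, 5 ratios and the summed share, each by genotype), 2 held a library far from the other 3, where chance flags about 1 in 20 sets, or 1.6. The total of WT replicate 2 was 4335653 counts, and the other WT libraries had between 1530781 and 1616024. The log2 ratio of Apob to Mttp was -1.14 in WT replicate 3 and between -0.69 and -0.59 in the other WT libraries.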

How the results depend on the processing

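With libraries scaled to enterocyte markers, 0 of the 9 genes were called lower, and Mttp, P4hb, Pla2g12b and Sar1b changed sign, to log2 fold changes of 0.139, 0.294, 0.098 and 0.18. Over 17 alternatives the 9 genes gave 153 values, of which 144 were lower and past the threshold, and all 9 exceptions came from that scaling. Genes called lower numbered 1438, but 859 with library totals and 32 with enterocyte scaling, and genes called higher 1555, but 2566 and 7277. Leaving out each library in turn gave between 1097 and 1564 genes lower and between 1020 and 1723 higher (1020 without WT replicate 4), with 9 of the 9 lower each time. The number lower relative to enterocyte markers was 9 with epithelial markers as the reference and between 0 and 2 with each library left out. The differences in log2 ratio kept their sign when a library was left out, except Apoa4 to Apoa1, which ran from -0.021 to 0.185. With 3 against 4 libraries the two-sided exact test, which doubles the one-sided p, cannot pass the threshold.

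With the replicate number as a block (replicate block), 1602 genes were lower, 1708 higher and all 9 genes lower, and the sign-flip p of the ratios, which cannot go below 0.125, was 0.125 for Sar1b to Sar1a and for Apob to Mttp. The number was not taken as a pairing, since same-numbered libraries deviated from their genotype means with correlations of 0.0517, 0.153, -0.139 and 0.323, and only WT replicates 1 and 4 correlated best with their own number. The Apoc2 level and any change in Apob editing are beyond these counts.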
